A study of Mus musculus with 8 samples.

Results

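The 9 genes Hmga1, Hmga2, Lin28a, Lin28b, Igf2bp1, Igf2bp2, Igf2bp3, Trim71 and Dnmt3b were followed in laser-captured optic fissure, the cleft on the underside of the embryonic mouse eye whose margins meet and fuse. They were chosen by gene symbol, with earlier results on the log2 signals of these same 8 arrays known. Their stage differences are therefore given as a description. Where a member probe set is said to be past or not past the limma threshold, that is a description too, and nothing is read from it. In the platform annotation 7 of the 9 genes had a probe set (a group of short probes read as 1 value), 21 probe sets of 45101 in all. Hmga1 and Igf2bp2 had no probe set under their own symbol and were not analysed here. A filter on low signal, which left out the dimmest 40% of probe sets (mean log2 below 3.94), kept 16 of the 21 and 27022 in all. The 16 belonged to 5 genes, namely Hmga2 (3 of 4 kept), Igf2bp1 (4 of 4), Igf2bp3 (5 of 6), Trim71 (2 of 2) and Dnmt3b (2 of 2). Lin28a (0 of 2) and Lin28b (0 of 1) had none above the filter.

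All embryos were wild-type C57BL/6 mice with no treatment named, at embryonic day 10.5 (E10.5), 11.5 or 12.5, and fissure tissue was cut from frozen sections by laser. E10.5 and E11.5 had 3 arrays each and E12.5 had 2, lettered A to C as in the titles, each of RNA pooled from 3 embryos and amplified linearly before labelling. The labels call the arrays biological replicates, but 1 field has the pooled embryos from the same litter and another from different litters. With so few arrays, every value below has limited precision.

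Several of these genes belong to a circuit first described in worm larvae and kept in mammals, in which early cells hold a high level of growth-promoting RNA-binding proteins until the microRNA let-7 matures. LIN28A and LIN28B bind let-7 precursors and block their maturation. Mature let-7 in turn silences messages that include Hmga2, Lin28b, Trim71 and the Igf2bp genes. HMGA2 is a DNA-binding chromatin protein that sustains the self-renewal of fetal neural stem cells, TRIM71 is an RNA-binding ubiquitin ligase needed for neural tube closure, and the IGF2BP proteins bind and stabilise messages such as Myc. DNMT3B places new DNA methylation in the early embryo. HMGA1, HMGA2 and DNMT3B are thus chromatin and DNA-methylation proteins, and the other 6 genes code for RNA-binding proteins.

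The let-7 family that links these genes is shown first because its members pair with their targets through the same seed. The array measured messenger RNA, and let-7 itself was not analysed here. In RefSeq (GRCm38.p6), 9 mature mouse microRNAs of the family were found, miR-98 included, and all 9 carried 1 seed, GAGGUAG. The capitals mark bases 2 to 8, and the sequences run 5′ to 3′.
mmu-let-7a-5p: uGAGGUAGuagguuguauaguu
mmu-let-7b-5p: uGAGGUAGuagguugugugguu
mmu-let-7c-5p: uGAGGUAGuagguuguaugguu
mmu-let-7d-5p: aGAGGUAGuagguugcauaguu
mmu-let-7e-5p: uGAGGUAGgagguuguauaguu
mmu-let-7f-5p: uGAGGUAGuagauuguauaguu
mmu-let-7g-5p: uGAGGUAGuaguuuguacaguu
mmu-let-7i-5p: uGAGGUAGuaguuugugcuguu
mmu-miR-98-5p: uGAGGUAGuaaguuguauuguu
Outside the seed the 9 sequences differed from each other, and a messenger RNA site that pairs with the seed is open to all of them.

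The fissure label was checked on markers of the optic cup. Of 9 listed genes 7 had a probe set, all above the filter, namely Vax1, Vax2, Rax, Pax6, Six3, Six6 and Lhx2, and their mean log2 signal was between 8.82 and 10.10 on every array. Markers of other cells were read too. The mean of 6 newborn neuron markers lay between 3.69 and 3.85 on the E10.5 arrays and between 3.53 and 3.62 on the E11.5 arrays, whereas E12.5 A had 6.58 and E12.5 B had 8.72. The mean of 5 pigment epithelium markers was 7.30 to 8.66 at E10.5, 9.03 to 10.42 at E11.5 and 9.32 to 10.05 at E12.5. These 5 did not move alike. Tyr read 3.09 to 4.25 at E10.5 and 9.67 and 9.10 on E12.5 A and B. Mitf was lower at E12.5, at 9.77 and 8.67, against 9.79 to 10.92 at E10.5. Periocular mesenchyme markers (4 of 5 with a probe set) averaged 4.02 to 4.42 at E10.5, 5.04 to 5.96 at E11.5 and 4.56 to 5.12 at E12.5. The 5 germ and pluripotent cell markers averaged between 3.49 and 3.79 on every array, near the low end of the signal range. Lens markers averaged 3.87 to 4.31 (2 of 4 above the filter) and endothelial markers 3.92 to 4.27 (1 of 5), also near the low end. Macrophage markers averaged 5.44 to 6.45 (3 of 4 above the filter), with Csf1r at 7.80 to 10.12 and Aif1 at 3.57 to 4.11. The 5 red blood cell markers averaged 7.90 to 8.04 at E10.5 and 7.77 to 8.31 at E11.5, and both E12.5 arrays lay below that. In pooled tissue, fewer cells of a type and less RNA per cell cannot be told apart.

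The arrays also differed as a whole, which bears on every stage difference and most of all on the values at E11.5. The 99th percentile of log2 signal was 12.55 to 12.93 at E10.5, 11.19 to 12.38 at E11.5 and 12.47 to 12.58 at E12.5. The 3 prime minus 5 prime signal of Actb, a measure of how complete the transcripts are, was 6.83 to 6.96 at E10.5, 5.45 to 6.61 at E11.5 and 6.88 to 7.21 at E12.5. The same measure for Gapdh was 4.19 to 4.71 at E10.5, 3.35 to 4.63 at E11.5 and 4.78 to 5.17 at E12.5. On Gapdh both E12.5 arrays thus lay above every earlier array. The part of these differences in the results was not tested. Each stage difference is therefore given both on the deposited values and after quantile normalization, which sets the 8 signal distributions equal.

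Hmga2 had the largest member difference at E12.5 minus E10.5, while at E11.5 minus E10.5 the largest was that of Igf2bp3 1433732_x_at (-1.12, against -1.04 for Hmga2 1450781_at). In the deposited values the Hmga2 mean was lower at each later stage on all 3 probe sets above the filter. On probe set 1450781_at the log2 signal was 11.42, 11.36 and 12.26 on E10.5 A, B and C, 10.15, 10.94 and 10.84 on E11.5 A, B and C, and 9.85 and 7.93 on E12.5 A and B. Every E11.5 array lay below every E10.5 array, and both E12.5 arrays lay below every E11.5 array. On 1422851_at the values were 12.69, 12.16 and 13.15 at E10.5, 11.06, 11.77 and 12.09 at E11.5, and 11.78 and 9.81 at E12.5. Here E11.5 and E12.5 overlapped, since E12.5 A read as high as E11.5 B. On 1450780_s_at, whose suffix marks probes that can match more than 1 transcript, the values were 11.01, 10.37 and 10.63 at E10.5, 9.64, 10.09 and 10.55 at E11.5, and 9.88 and 7.90 at E12.5. Its E10.5 and E11.5 arrays overlapped, and both E12.5 arrays lay below every E10.5 array.

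**Figure D1:**
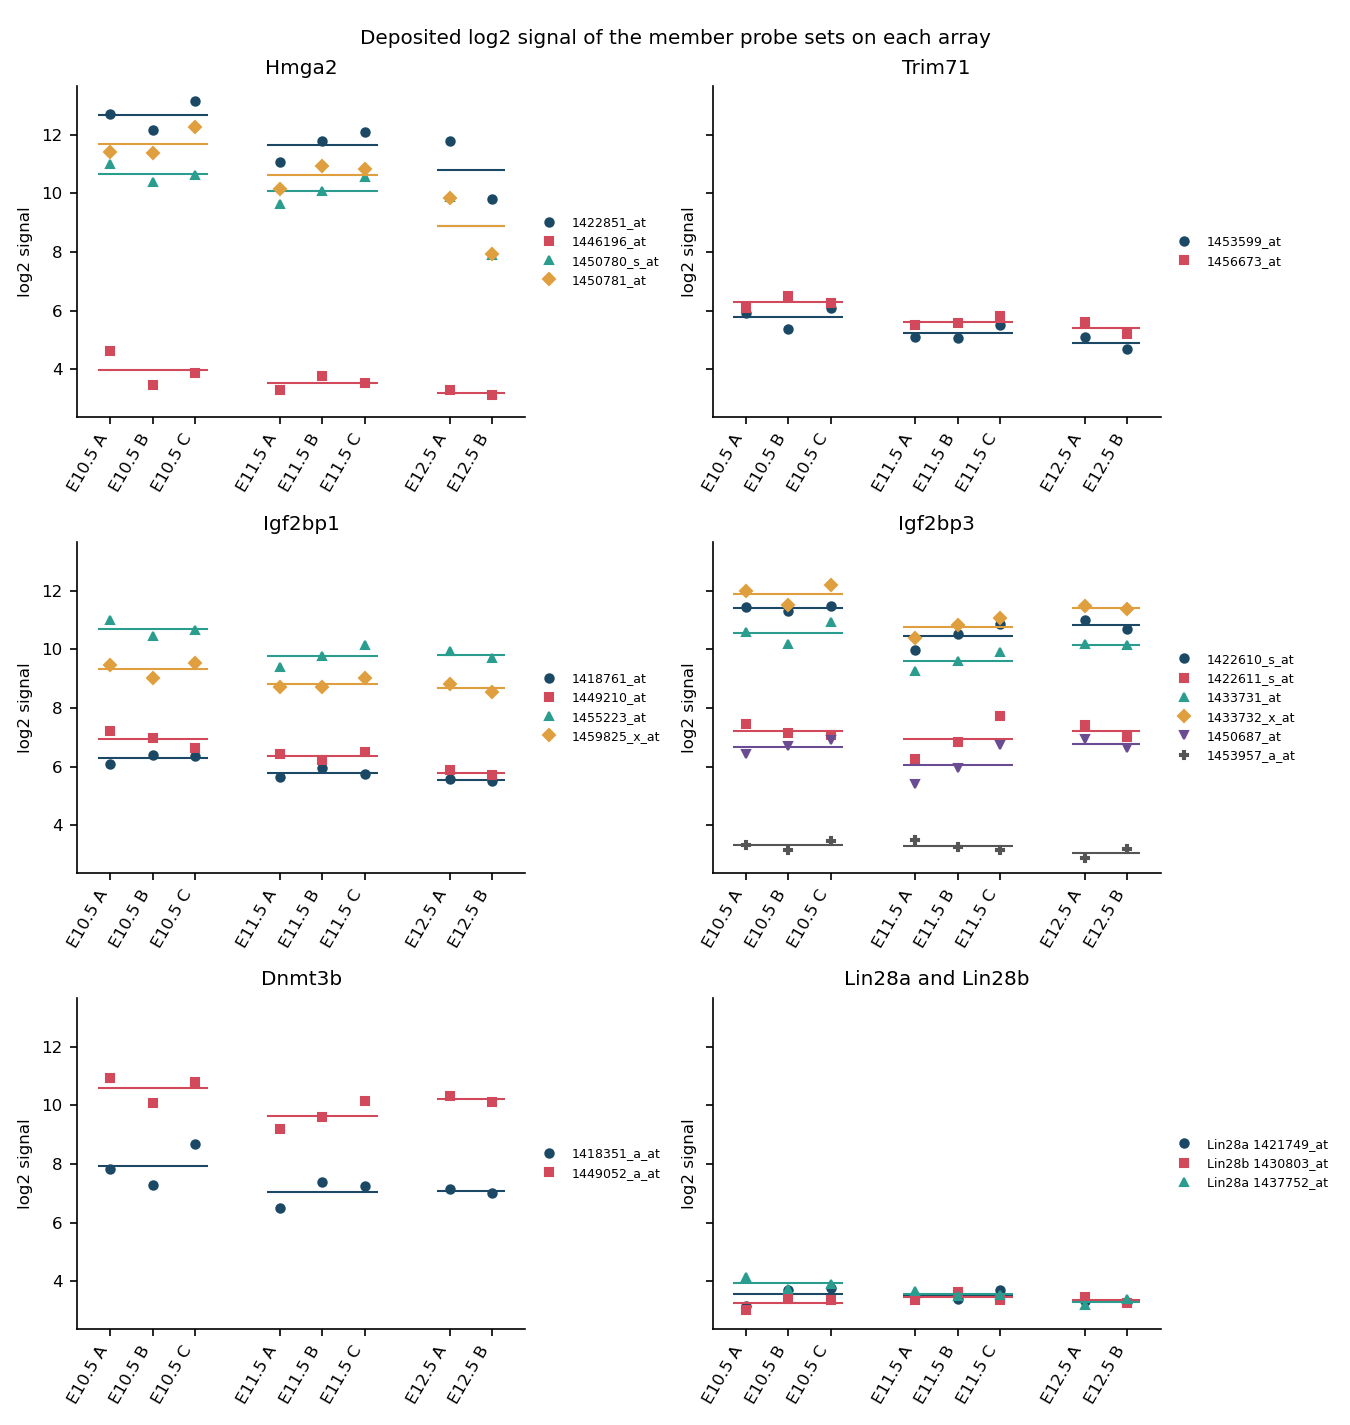
Deposited log2 signal (vertical axis) of each member probe set on each of the 8 arrays (horizontal axis, grouped by stage), with horizontal lines at the stage means. The 3 Hmga2 probe sets above the filter are lowest on E12.5 B, at 7.90 to 9.81, while the Lin28a and Lin28b probe sets stay between 3.004 and 4.15 on all arrays.

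At E12.5 the stage mean of Hmga2 on 1450781_at was 8.89 ± 1.36 (SD, n = 2), against 11.68 ± 0.50 (SD, n = 3) at E10.5, a log2 difference of -2.79 (SE 0.53), or 6.90-fold lower. On the other 2 probe sets the difference was -1.87 (SE 0.56) for 1422851_at and -1.78 (SE 0.51) for 1450780_s_at. The sizes thus ran from 3.44-fold to 6.90-fold lower on the 3 probe sets. After quantile normalization they were -2.54, -1.59 and -1.62. Of these 3, only 1450781_at was past the threshold described below.

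The E11.5 step of Hmga2 depended on the scale. Deposited values at E11.5 minus E10.5 gave -1.04 (SE 0.47) on 1450781_at, -1.02 (SE 0.50) on 1422851_at and -0.58 (SE 0.46) on 1450780_s_at. After quantile normalization the same differences were -0.14, -0.03 and 0.15, so the third changed sign. From E11.5 to E12.5 the deposited values gave -1.75 (SE 0.53), -0.85 (SE 0.56) and -1.20 (SE 0.51), and normalized values gave -2.41, -1.56 and -1.77. On the normalized scale almost all of the Hmga2 difference thus lay in the second interval.

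The 2 E12.5 arrays were far apart in Hmga2. E12.5 B minus E12.5 A was -1.92, -1.97 and -1.98 on the 3 probe sets, which is 3.79-fold to 3.95-fold lower on E12.5 B. Over all 27022 probe sets, 7 were lower on E12.5 B by at least the smallest of these gaps, and the Hmga2 probe sets were 3 of the 7. The other 13 member probe sets were lower on E12.5 B by between 0.04 and 0.42, against a median difference of -0.05 over all probe sets. The newborn neuron mean moved the other way, 8.72 on E12.5 B and 6.58 on E12.5 A, with Dcx, a microtubule protein of migrating neurons, at 9.06 and 5.04. The pigment epithelium mean was 9.32 on E12.5 B and 10.05 on E12.5 A. The red blood cell mean was 6.997 on E12.5 B and 7.45 on E12.5 A, and of its 5 genes Hbb-bh1, an embryonic globin, differed most, at 7.29 and 8.96, against 10.83 to 11.79 over the earlier arrays. The part of these cell markers in the Hmga2 values was not tested. Without E12.5 B the E12.5 minus E10.5 difference was -1.83, -0.89 and -0.79 on 1450781_at, 1422851_at and 1450780_s_at, and without E12.5 A it was -3.75, -2.86 and -2.77. The direction relative to E10.5 was the same with either array, while on all 3 probe sets the size was larger without E12.5 A than without E12.5 B. Relative to E11.5, 1422851_at changed sign without E12.5 B, to 0.14.

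**Figure D2:**
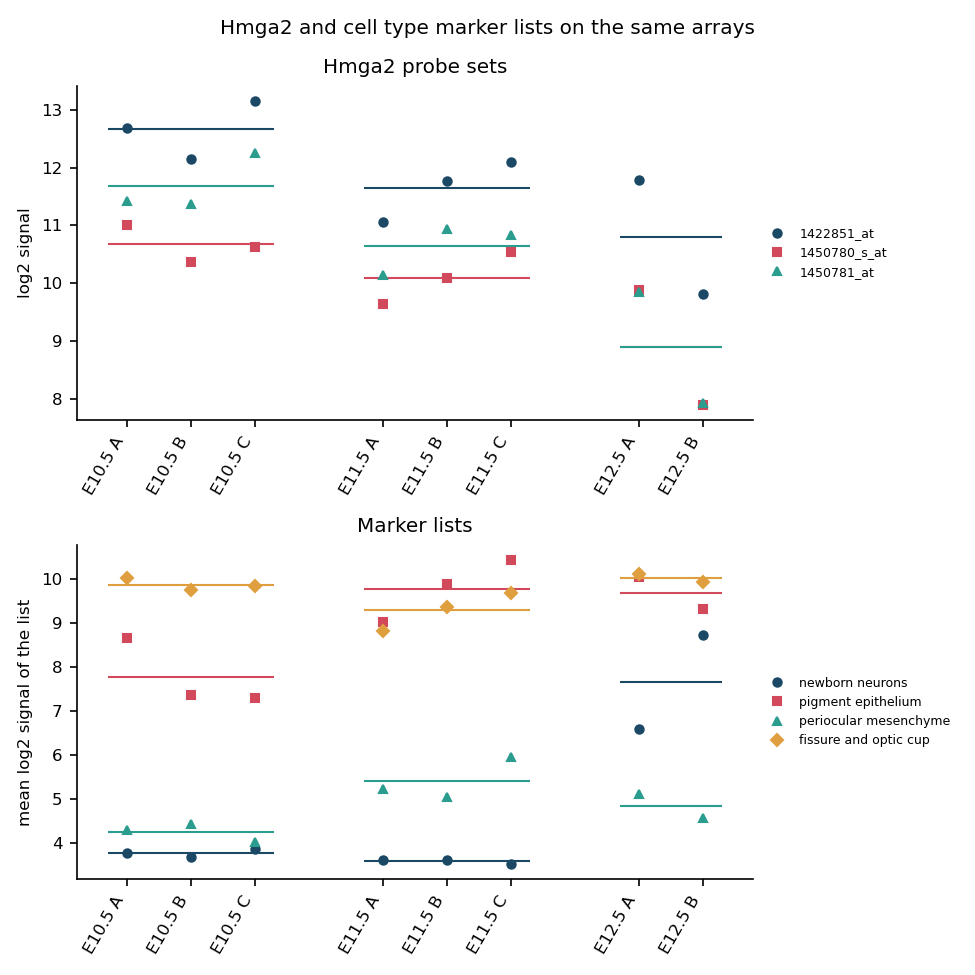
The upper panel gives log2 signal of the 3 Hmga2 probe sets above the filter on each array, and the lower panel the mean log2 signal of 4 marker lists on the same arrays, with lines at stage means. On E12.5 B Hmga2 is lowest, at 7.90 to 9.81, and the newborn neuron mean is highest, at 8.72.

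The remaining Hmga2 probe set, 1446196_at, lay at the low end of the range, between 3.13 and 4.62 over the 8 arrays, and was left out by the filter.

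Trim71 resembled Hmga2 in being lower at each later stage, on a smaller scale. On 1456673_at the log2 signal was 6.09, 6.49 and 6.27 at E10.5, 5.50, 5.58 and 5.81 at E11.5, and 5.62 and 5.20 at E12.5. Every later array lay below every E10.5 array, and E11.5 and E12.5 overlapped. On 1453599_at it was 5.93, 5.37 and 6.09 at E10.5, 5.11, 5.08 and 5.51 at E11.5, and 5.12 and 4.70 at E12.5. On that probe set E11.5 C read above E10.5 B. At E12.5 minus E10.5 the differences were -0.87 (SE 0.24) and -0.89 (SE 0.27), and both were -0.89 after quantile normalization. At E11.5 minus E10.5 they were -0.65 (SE 0.21) and -0.57 (SE 0.24), or -0.58 and -0.51 after normalization. Most of the Trim71 difference thus lay in the first interval on both scales. For Hmga2 most lay in the second interval after normalization, and in the deposited values the larger step was the first on 1422851_at and the second on the other 2 probe sets. The contrast between the genes was not tested.

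Across the 8 arrays, Pearson's r with Hmga2 1422851_at was 0.91 and 0.83 for the 2 Trim71 probe sets. It was 0.72 to 0.88 for Igf2bp1, 0.58 and 0.75 for Dnmt3b, and 0.31 to 0.68 for Igf2bp3. These are descriptions over 8 arrays that share stage and array-wide signal differences. Promoters of Hmga2 and Trim71 are printed because Trim71 had the highest r with Hmga2 among the other member genes, each from 250 bases before to 50 after the RefSeq start (GRCm38.p6), 5′ to 3′ on the strand of the gene. Capitals mark GC boxes, searched as GGGCGG on both strands. Hmga2 lies at chr10:120476420-120476719 (minus strand) and Trim71 at chr9:114564320-114564619 (minus strand).
Hmga2: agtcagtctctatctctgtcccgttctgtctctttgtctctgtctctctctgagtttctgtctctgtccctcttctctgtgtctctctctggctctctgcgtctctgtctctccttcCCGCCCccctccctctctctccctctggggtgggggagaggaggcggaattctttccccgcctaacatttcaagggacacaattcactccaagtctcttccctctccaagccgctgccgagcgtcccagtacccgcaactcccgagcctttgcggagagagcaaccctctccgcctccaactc
Trim71: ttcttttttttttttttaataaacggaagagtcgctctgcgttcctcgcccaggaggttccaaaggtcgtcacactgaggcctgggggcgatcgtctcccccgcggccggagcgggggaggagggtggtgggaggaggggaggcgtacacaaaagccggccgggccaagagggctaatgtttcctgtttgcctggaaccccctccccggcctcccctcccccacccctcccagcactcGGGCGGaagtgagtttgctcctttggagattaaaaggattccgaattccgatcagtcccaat
Each window held 1 GC box, a motif found in 35.7% of 32851 promoters of the same length. Neither window held an E-box (CANNTG, both strands), which 72.3% of promoters did. The pair was not alone in this. The Lin28a window also held 1 GC box and no E-box, and the Igf2bp2 window held no E-box. The number of CG dinucleotides was 12 for Hmga2 and 19 for Trim71, against 30 for Dnmt3b, 25 for Igf2bp3 and a median of 7 over all promoters. It was 10 for Lin28a, 8 for Lin28b, 47 for Igf2bp2, and 40 and 38 in the 2 windows of Hmga1. Of all promoters, 60.4% had fewer than Hmga2.

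Igf2bp1, which binds messages such as Myc and Actb in embryonic cells, was lower at E12.5 than at E10.5 on all 4 probe sets. On 1449210_at the log2 signal was 7.23, 6.98 and 6.63 at E10.5, 6.42, 6.22 and 6.48 at E11.5, and 5.87 and 5.73 at E12.5. The 3 stages did not overlap on this probe set. On 1455223_at it was 10.99, 10.45 and 10.67 at E10.5, 9.39, 9.77 and 10.15 at E11.5, and 9.94 and 9.69 at E12.5. Here the E12.5 arrays lay within the range of the E11.5 arrays. The E12.5 minus E10.5 difference was -1.15 (SE 0.25) on 1449210_at, 2.22-fold lower, and between -0.89 and -0.65 on the other probe sets. After quantile normalization the 4 differences lay between -1.15 and -0.59.

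The probe sets of Igf2bp1 did not agree on the timing in the deposited values. From E11.5 to E12.5, 1449210_at differed by -0.58 (SE 0.25) and 1418761_at by -0.24 (SE 0.22), with no overlap on either. The same step was 0.05 (SE 0.33) on 1455223_at and -0.13 (SE 0.29) on 1459825_x_at. After quantile normalization all 4 were lower at E12.5, by -0.73 to -0.36. The E11.5 minus E10.5 differences, -0.94 to -0.51 as deposited, became -0.41 to -0.02.

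Igf2bp3, the family member best known as an oncofetal protein, was lowest at E11.5 in the deposited values, and after quantile normalization its E12.5 minus E11.5 difference was 0.07 or less on 4 of 5 probe sets. On 1433732_x_at the log2 signal was 11.98, 11.51 and 12.20 at E10.5, 10.39, 10.85 and 11.08 at E11.5, and 11.48 and 11.37 at E12.5. Both E12.5 arrays lay above every E11.5 array and below every E10.5 array. On 1422610_s_at it was 11.46, 11.30 and 11.49 at E10.5, 9.97, 10.54 and 10.88 at E11.5, and 10.99 and 10.71 at E12.5. E12.5 minus E11.5 was 0.65 (SE 0.36) and 0.39 (SE 0.35) on these probe sets, and -0.05 and -0.25 after normalization. On 1433731_at, whose E12.5 arrays also lay above every E11.5 array, it was 0.56 (SE 0.33), and 0.07 after normalization. On 1450687_at it was 0.74 (SE 0.35), and 0.60 after normalization, with overlap. On 1422611_s_at the log2 signal was 7.44, 7.16 and 7.10 at E10.5, 6.26, 6.83 and 7.73 at E11.5, and 7.43 and 7.01 at E12.5, with overlap throughout. At E12.5 minus E10.5 the 5 probe sets lay between -0.57 and 0.11, and between -0.34 and 0.05 after normalization. The probe set with the positive value, 1450687_at, read 6.94 and 6.62 at E12.5 and 6.43, 6.69 and 6.89 at E10.5, so the stages overlapped. The suffixes of 3 of the 5 probe sets mark probes that can match other transcripts. A 6th probe set, 1453957_a_at, read between 2.89 and 3.48 on all arrays and was left out by the filter.

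Dnmt3b was lower at E11.5 than at E10.5 with overlap between the stages, and its probe sets differed at E12.5. On 1449052_a_at the log2 signal was 10.94, 10.09 and 10.79 at E10.5, 9.18, 9.60 and 10.16 at E11.5, and 10.33 and 10.10 at E12.5. On 1418351_a_at it was 7.82, 7.27 and 8.67 at E10.5, 6.497, 7.40 and 7.27 at E11.5, and 7.14 and 7.02 at E12.5. E12.5 minus E10.5 was -0.39 (SE 0.38) on the first and -0.84 (SE 0.40) on the second, or -0.23 and -0.83 after normalization. Only on the second did the E12.5 arrays lie below all E10.5 arrays. RefSeq lists a pseudogene copy of Dnmt3b, and whether its transcripts reach these probes was not tested.

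Lin28a and Lin28b, the genes at the head of the let-7 circuit, read near the low end of the range on every array. Lin28a 1437752_at was 4.15, 3.73 and 3.89 at E10.5, 3.67, 3.51 and 3.52 at E11.5, and 3.20 and 3.41 at E12.5. The 3 stages did not overlap there, but 30.2% of all probe sets had a lower mean, and the values lie near the low end of the table, whose 5th percentile is 2.95. Lin28a 1421749_at was 3.17, 3.71 and 3.78 at E10.5, 3.51, 3.38 and 3.71 at E11.5, and 3.34 and 3.30 at E12.5, with overlap. Lin28b 1430803_at was 3.004, 3.38 and 3.35 at E10.5, 3.38, 3.62 and 3.36 at E11.5, and 3.48 and 3.26 at E12.5, with overlap throughout. No detection calls were used, so these values do not tell a low level from background.

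Between E10.5 and E11.5, all 16 member probe sets above the filter were lower at E11.5, with a median log2 difference of -0.76. Over all 27022 probe sets 70.9% were lower and the median was -0.18. The 16 were brighter by mean than 63.8% to 98.6% of all probe sets. The fall was not particular to them among the lists of other genes described below. Lower too were 7 of 7 high mobility group genes (median -0.76) and 21 of 21 other RNA-binding protein genes (-0.49). So were 18 of 21 microRNA processing genes (-0.52), but only 2 of 7 downstream genes (0.20). The arrays did not overlap for 9 of the 16, against 19.3% of all probe sets in that direction. None of the 16 was past an adjusted p of 0.05 in limma, against 0.0296% lower and 0.0962% higher of all, with 5254 of all at an unadjusted p under 0.05. After quantile normalization 15 of 16 were lower and their median was -0.28, against -0.02 for all. Without E11.5 A, which had the lowest 99th percentile, the member median was -0.59 with 15 of 16 lower.

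Between E11.5 and E12.5 the members went both ways, 8 of 16 lower and a median of -0.05, against 0.10 for all probe sets. There were 3 probe sets (2 of Igf2bp1, 1 of Hmga2) with both E12.5 arrays below every E11.5 array, against 14.1% of all. For 2 of Igf2bp3 both E12.5 arrays lay above every E11.5 array, and the share of all in that direction was not counted. None was past the threshold, against 0.2% lower and 1.62% higher of all. After quantile normalization 12 of 16 were lower, the median was -0.34, and Hmga2 1450781_at was past the threshold. These values also moved with single arrays. Without E11.5 A, 11 of 16 were lower with a median of -0.22. Without E12.5 A, 10 were lower with a median of -0.17 and 1 past the threshold. Without E12.5 B, 7 were lower with a median of 0.11, and without E11.5 C the median was 0.05.

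Between E10.5 and E12.5, 15 of 16 were lower at E12.5, with a median of -0.79, against -0.08 for all probe sets and 57.6% of all lower. For 13 of the 16 both E12.5 arrays lay below every E10.5 array, against 25.7% of all. Of the 16, 2 were past an adjusted p of 0.05 in limma, both lower (Hmga2 1450781_at and Igf2bp1 1449210_at), against 1.56% lower and 3.08% higher of all. Since the genes were chosen with these values known, nothing is read from these counts. The count of 2 was 0 without E12.5 B, 1 without E10.5 A, 1 without E11.5 B, 3 without E10.5 B, 3 without E12.5 A and 4 after quantile normalization.

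**Figure D3:**
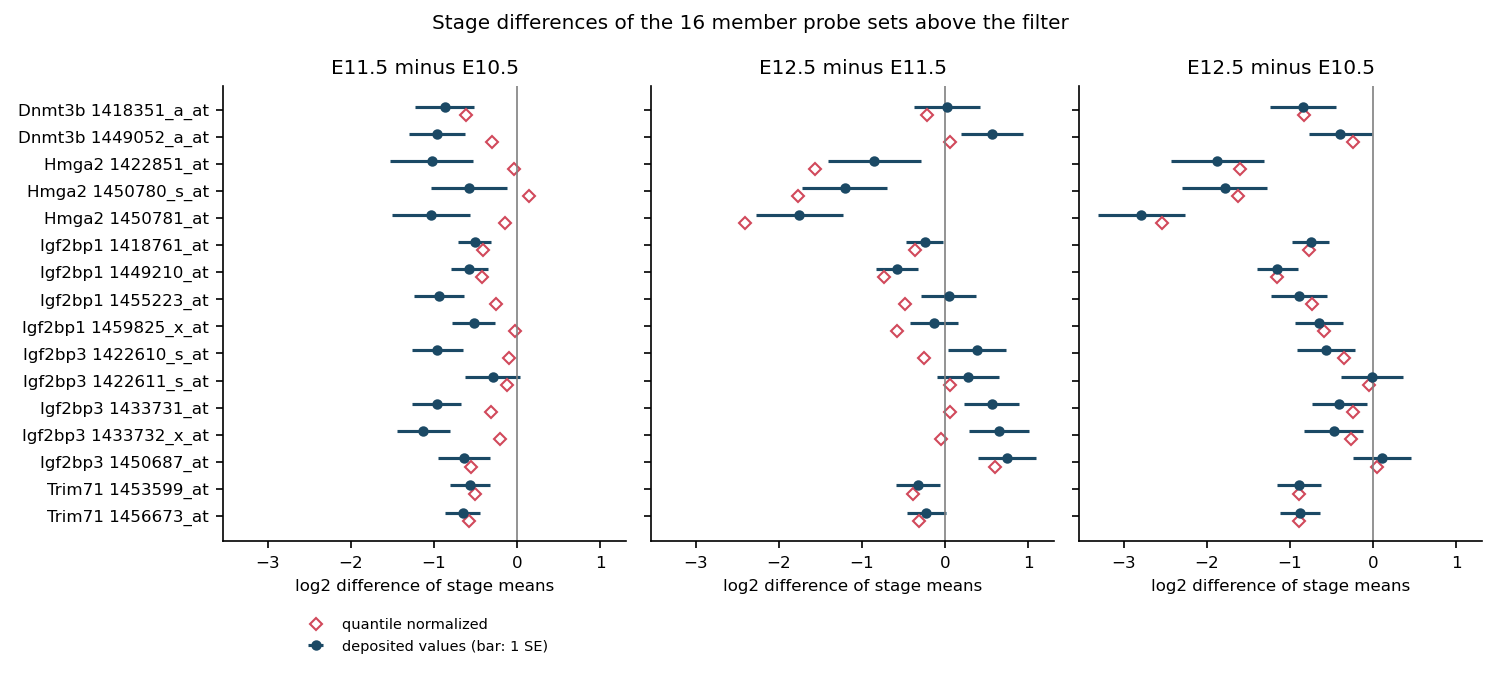
Log2 differences of stage means (horizontal axis) for the 16 member probe sets above the filter, with 1 panel per comparison, as deposited (filled points, bars of 1 standard error) and after quantile normalization (open diamonds). At E12.5 minus E10.5, 15 of the 16 deposited differences lie below 0, and the lowest is Hmga2 1450781_at at -2.79. At E11.5 minus E10.5 the normalized points lie closer to 0.

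The wider circuit was followed in 7 lists of other genes, each gene by its probe set with the highest mean. The genes were tested over all 27022 probe sets in limma with Benjamini-Hochberg adjustment. These lists too were chosen with earlier results of these data known, so their calls and p-values are a description and no independent support. At E11.5 minus E10.5, 0 of the 101 genes measured in these lists passed, and 34 had an unadjusted p under 0.05. Of all 27022 probe sets, 0.0296% passed as lower and 0.0962% as higher there, and 5254 had an unadjusted p under 0.05. The shares of all that passed were 0.2% lower and 1.62% higher at E12.5 minus E11.5. For E12.5 minus E10.5 they were 1.56% lower and 3.08% higher. Among let-7 target genes other than the members, 3 of 23 measured were lower and none higher at E12.5 minus E10.5, with a median of -0.07 against -0.10 for all 13050 genes. After quantile normalization 3 were lower and 4 higher, so the one-sided split did not hold. The 4 were Ccnd1 (1.06, limma adjusted p = 0.00941), Insr (0.89, 0.0354), Igf1r (0.89, 0.0376) and Mycn (1.19, 0.0434), which in the deposited values differed by 0.88, 0.91, 0.93 and 1.13 and did not pass. At E12.5 minus E11.5, 1 of the 23 was higher and none lower, with a median of 0.42 against 0.11.

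The 3 let-7 targets called lower at E12.5 minus E10.5 were Prtg, Nr6a1 and Irs2. Of the 23 measured, 12 had a difference below 0. Among them Ccnd2 (-1.14, SE 0.42) and Cdc25a (-1.13, SE 0.44) did not pass. Prtg, a cell surface receptor of the early neural epithelium, was 9.19 and 8.53 at E12.5, against 10.50, 10.43 and 10.24 at E10.5. It fell by 1.53 on the log2 scale, 2.89-fold lower (SE 0.35, limma adjusted p = 0.0311). Nr6a1, an orphan nuclear receptor that silences pluripotency genes, was 3.78 and 3.88 at E12.5, against 4.42, 4.93 and 4.70 at E10.5 (log2 difference -0.85, SE 0.19, limma adjusted p = 0.0304). Its E12.5 values lie near the low end of the range. Irs2, an adaptor of insulin and IGF receptors, was 5.25 and 5.04 at E12.5, against 6.41, 5.89 and 6.69 at E10.5 (-1.19, SE 0.30, limma adjusted p = 0.0463). Another target, Ccnd1, the cyclin that drives entry into the cell cycle, rose by 1.89 between E11.5 and E12.5 (SE 0.34, limma adjusted p = 0.0161), or by 1.32 after quantile normalization. It was 11.83 and 11.89 at E12.5, against 9.67, 9.81 and 10.45 at E11.5. At E10.5 it was 11.03, 10.79 and 11.12.

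Of the early embryonic and pluripotent cell genes, 12 of 17 were measured, and 3 were lower and none higher at E12.5 minus E10.5 (median -0.17). After quantile normalization 3 were lower and 1 higher, Sox2 (0.97, limma adjusted p = 0.0128, against 0.79 and 0.206 in the deposited values). Nr6a1 and Prtg are in this list too. The third was Sall4, a zinc finger factor of stem and progenitor cells, at 7.48 and 7.15 at E12.5, against 8.56, 8.96 and 8.56 at E10.5. It fell by 1.38, 2.61-fold lower (SE 0.27, limma adjusted p = 0.0165). At E11.5 Sall4 read 7.34, 7.53 and 7.78, below every E10.5 array. In the same list 1 gene was higher at E12.5 minus E11.5, Sox2, a factor of neural progenitors. It was 12.21 and 12.21 at E12.5, against 9.75, 10.26 and 10.62 at E11.5 (log2 difference 1.998, SE 0.34, limma adjusted p = 0.0129), or 1.38 higher after quantile normalization. At E10.5 it was 11.40 to 11.45.

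Among 21 measured microRNA processing genes, 1 was higher and none lower at E12.5 minus E10.5. This was Ago4, an Argonaute protein, at 5.27 and 5.92 at E12.5, against 4.10, 4.42 and 3.75 at E10.5 (log2 difference 1.499, SE 0.28, limma adjusted p = 0.0124). Its E10.5 values lie near the low end of the range, and a filter of the lowest 60% left Ago4 out. Dicer1, Tut4 and Dis3l2, which cut, tail and degrade microRNA precursors, differed by -0.54 (SE 0.31), -0.35 (SE 0.30) and 0.01 (SE 0.18) and did not pass. Of 21 other RNA-binding protein genes, 1 was lower at E12.5 minus E10.5, Rbms1, a single-strand nucleic acid binding protein, at 6.998 and 6.42 at E12.5, against 9.25, 8.98 and 7.52 at E10.5 (-1.87, SE 0.44, limma adjusted p = 0.0367). After quantile normalization 2 of these 21 RNA-binding protein genes were higher, Msi1 (1.16, limma adjusted p = 0.0491) and Fmr1 (1.13, 0.0353), and Rbms1 was lower at E12.5 minus E11.5 too (-2.14, 0.0364). In the deposited values no gene passed in any comparison among 13 DNA methylation genes, 7 high mobility group genes and 7 genes downstream of Hmga2, Igf2bp and Trim71. Of these 27, 6, 9 and 6 had an unadjusted p under 0.05 in limma at E11.5 minus E10.5, E12.5 minus E11.5 and E12.5 minus E10.5. Of all 27022 probe sets, 5254, 4507 and 5993 did in the same comparisons. After quantile normalization 1 of the 27 genes passed, Mbd2, a reader of methylated DNA (0.91, limma adjusted p = 0.0377, E12.5 minus E10.5). At E12.5 minus E10.5 the list medians were -0.07 for microRNA processing, 0.04 for other RNA-binding proteins, 0.22 for DNA methylation, 0.10 for high mobility group genes and -0.07 for the downstream genes. Dnmt3a, the other main enzyme of new methylation, differed by 0.28 (SE 0.38) at E12.5 minus E10.5, and Igf2, a message bound by the IGF2BP proteins, by -0.15 (SE 0.50).

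**Figure D4:**
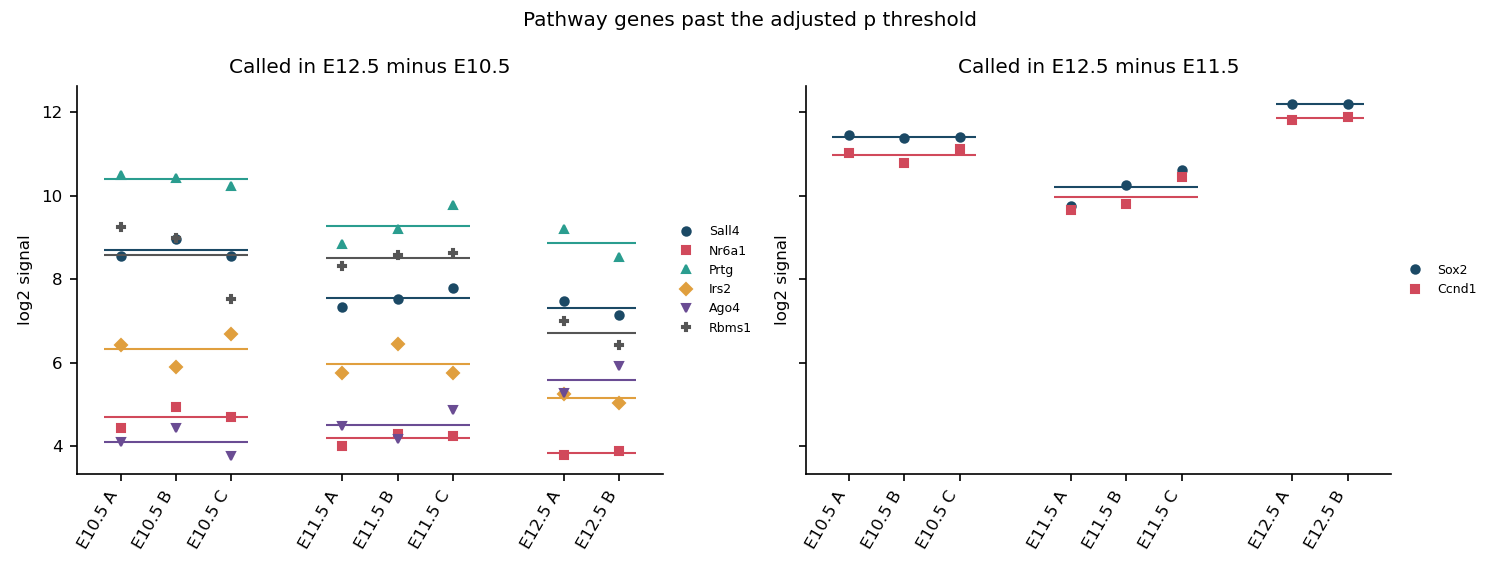
Log2 signal (vertical axis) on each array (horizontal axis) of the 8 pathway genes past the adjusted p threshold, with lines at stage means, at E12.5 minus E10.5 (left) and E12.5 minus E11.5 (right). Prtg, Sall4, Irs2, Nr6a1 and Rbms1 are lower at E12.5 than at E10.5 and Ago4 is higher, while Sox2 and Ccnd1 are lowest at E11.5.

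These 8 calls held after quantile normalization, which also added the calls given above, and they rested on few arrays. All 8 were lost without E12.5 B and 7 without E12.5 A (Ago4 held), fits in which the lone E12.5 array is assumed to vary like the other stages. Without E11.5 B, 6 were lost, with Sall4 and Ago4 still called. Without E10.5 A, Prtg, Irs2 and Rbms1 were lost, and without E10.5 B, Nr6a1, Prtg and Rbms1. Irs2 was also lost without E10.5 C, E11.5 A or E11.5 C, and Rbms1 without E11.5 A.

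Genes whose pattern over the 8 arrays was most like Hmga2 1422851_at were ranked by Pearson's r among 2182 probe sets of named genes with a range of at least 2. The first 5 genes were Gsta4 (r = 0.97), Ccnd2 (0.96), Col18a1 (0.95), Flrt3 (0.95) and Gtf2h4 (0.94). Gsta4, a glutathione transferase, was 9.51, 9.45 and 10.23 at E10.5, 8.82, 9.04 and 9.36 at E11.5, and 8.79 and 7.70 at E12.5. Ccnd2, a D-type cyclin and let-7 target, was on that probe set 10.25, 10.39 and 10.66 at E10.5, 9.35, 9.59 and 9.58 at E11.5, and 9.62 and 8.22 at E12.5. As with Hmga2, E12.5 B was the lowest array for all 5. The 5 were picked for likeness to Hmga2 on these same arrays, so this largely follows from the choice. The 8 arrays share stage and array-wide signal, and these r values are a description.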

How the data were processed

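Messenger RNA was measured on 8 single-channel arrays of laser-captured fissure tissue. The values the authors deposited are log2 signals, 1 for every probe set on each array. Per the submitters' processing notes GCOS 1.4 was used in a step not named, and the summarisation, background correction and normalization are not given in the sources used here. Array medians lay between 4.37 and 4.48. Symbols came from a platform annotation of 2016, updated through gene identifiers to RefSeq (34754 of 34958 probe sets with 1 symbol matched, 932 had several and 9211 none). The 64 control probe sets and the lowest 40% by mean were left out. The values were fitted without further normalization in limma 3.58.1 (R 4.3.3), with 1 mean per stage, 5 residual degrees of freedom, a trend in the variance and Benjamini-Hochberg adjustment over 27022 probe sets (threshold 0.05). The fit was tested on simulated data. The p-values measure the spread between these arrays.

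The 9 genes, the 7 pathway lists and the 9 marker lists were chosen with earlier results of these data known. Named were all member probe sets, up to 4 called genes per list and comparison, and the 5 genes most like Hmga2 (none for Lin28a and Lin28b, below the filter). Other list genes named, with those called only after quantile normalization, and single marker genes were chosen after their values were seen. List genes with no probe set under their own symbol were not analysed here. Alternatives were 2 scalings, 2 filters, a pseudocount of 16, no variance trend, a replicate block, array weights and leaving out each array.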

Additional observations from a re-analysis of the deposited data

How the results depend on the processing

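At E11.5 minus E10.5, 34 probe sets passed in limma, against 21 with a pseudocount of 16, 6 with no variance trend, 5 with a replicate block and 5017 with array weights. Leaving out 1 array gave 5 to 56 (15 without E12.5 A and 14 without E12.5 B, 5 without E11.5 B, 56 without E11.5 A and 9 without E11.5 C). At E12.5 minus E11.5, 492 passed, against 280 with the block and 12520 with array weights, and 114 (without E12.5 B) to 905 (without E11.5 C) with 1 array left out, among them 203 without E11.5 B, 849 without E10.5 C, 184 without E11.5 A and 322 without E10.5 B. At E12.5 minus E10.5, 1255 passed, against 531 with the block and 3371 with array weights, and 209 (without E12.5 B) to 1610 (without E10.5 B), with 670 without E12.5 A and 685 without E11.5 B. Array weights put a weight of 218 on E11.5 B, so those counts rest on that array. Quantile normalization moved the share of higher calls to 91.3% at E11.5 minus E10.5 and to 67.6% at E12.5 minus E11.5, against 76.5% and 89.0% as deposited. The causes were not tested. Whether the letters pair the arrays was not settled. Deviations from stage means correlated by -0.39, -0.11 and -0.38 between same-lettered E10.5 and E11.5 arrays. With the E12.5 arrays the same-letter values were 0.13 and 0.07 for E10.5 A and B, and -0.14 and 0.02 for E11.5 A and B. Deviations from means of so few arrays constrain each other, so these values cannot decide it. With the replicate block 0 member probe sets passed at E12.5 minus E10.5, and 5 of the 8 pathway calls were lost (all but Ago4, Sox2 and Ccnd1). With no variance trend 3 were lost (Nr6a1, Irs2 and Rbms1). Of the differences of members and called pathway genes refitted under these settings, 822 kept their call or moved by less than the spread, 31 moved by more and 41 lost their call.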

Other observations

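Besides the 3 Hmga2 probe sets, 4 of the 27022 probe sets were at least as much lower on E12.5 B than on E12.5 A, and they were picked after their values were seen. Aldh1a7, an aldehyde dehydrogenase, was 8.58 on E12.5 B and 10.97 on E12.5 A. Cxcl5, a chemokine, was 4.77 and 6.93, and Adamts9, a secreted matrix protease, was 6.33 and 8.34. The last is a probe set of several Xlr4 genes. At E10.5, Adamts9 was 9.84, 9.22 and 9.19, and Aldh1a7 was 9.13, 9.69 and 11.52.

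Some genes of the lists had large differences that did not pass in limma on the deposited values. The largest was that of Tnrc6a, a scaffold of microRNA silencing complexes, at 12.90 and 13.06 at E12.5, against 6.42, 12.70 and 5.98 at E10.5, so that E10.5 B stood apart from E10.5 A and C (log2 difference 4.61, SE 1.45, adjusted p = 0.0932). At E11.5 minus E10.5 Tnrc6a differed by 4.55 (SE 1.30, adjusted p = 0.159). Rbms1 differed by -1.79 (SE 0.44, adjusted p = 0.0751) at E12.5 minus E11.5. Msi1, an RNA-binding protein of neural progenitors, differed by 1.56 (SE 0.37, adjusted p = 0.0609) at E12.5 minus E11.5, and Mycn, a let-7 target and growth regulator, by 1.45 (SE 0.43, adjusted p = 0.128). Igf1r, the IGF receptor and a let-7 target, differed by 1.18 (SE 0.30, adjusted p = 0.0786). Uhrf1, which guides maintenance methylation, differed by 1.00 (SE 0.33, adjusted p = 0.163) at E12.5 minus E11.5, and by -1.28 (SE 0.30, adjusted p = 0.139) at E11.5 minus E10.5.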
